A study of Homo sapiens with 9 samples.

Results

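The neutrophil chemokines of the CXCL cluster, as taken here, are 6 secreted proteins, CXCL1, CXCL2, CXCL3, CXCL5, CXCL6 and CXCL8. Their genes lie in a cluster on the long arm of chromosome 4. That cluster also holds PF4, PF4V1 and PPBP, which lie among the 6 and were not counted as members. The 6 were chosen by name as neutrophil-attracting genes of the cluster, and are 6 of the 56865 genes for which reads could be summed. Their mRNA was measured by sequencing of poly(A)-selected RNA in 9 libraries, made from cells with the label BxPC3, a human pancreatic adenocarcinoma line with the labelled genotype p53Y220C/-, which all groups share. The genotype means that the p53 protein carries the change Y220C and that no second allele is left. Libraries came from cells given MS172 (3 libraries), PK9328 (3 libraries) or the vehicle DMSO (3 libraries). The treatment protocol gives 5 µM and 6 h, but the compounds it names are PK9328 and MS78, while MS172 is the name in the titles, the treatment labels and the design, so the dose and time of MS172 rest on a protocol with another compound name. The design asks how MS172 and DMSO differ in gene expression, and PK9328, known as a small molecule that binds this mutant p53, is a further arm. A single line was used. The labels do not say that replicates were separate cultures, and a p-value here therefore reflects only library-to-library spread, which may be technical.

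All 6 chemokines carry a glutamate-leucine-arginine motif ahead of their first cysteines and draw neutrophils by binding the receptor CXCR2, and CXCL6 and CXCL8 also bind CXCR1. In epithelial and tumour cells their transcription is switched on mainly by NF-kB, together with AP-1 and C/EBP factors at some promoters, after signals such as interleukin-1 or TNF. Their mRNAs hold AU-rich elements that shorten their life until the p38 kinase pathway blocks decay factors such as ZFP36. Pancreatic tumours are known for secreting these proteins and for recruiting neutrophils through CXCR2.

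The bases ahead of the 6 starts are shown because they hold 9 letters that all members share and few other promoters have, and because they split the members into 3 kinds. Each line gives the 150 bases that precede the RefSeq start (build GRCh38.p14, strand of the gene), with matches to the NF-kB letters GGAATTTCC, the AP-1 letters TGANTCA and the TATA letters TATAAA in capitals. The windows lie at chr4:73740419-73740568 (plus strand) for CXCL8, chr4:73998678-73998827 (minus strand) for CXCL5, chr4:73836528-73836677 (plus strand) for CXCL6, chr4:73869243-73869392 (plus strand) for CXCL1, chr4:74099196-74099345 (minus strand) for CXCL2 and chr4:74038690-74038839 (minus strand) for CXCL3.
CXCL8: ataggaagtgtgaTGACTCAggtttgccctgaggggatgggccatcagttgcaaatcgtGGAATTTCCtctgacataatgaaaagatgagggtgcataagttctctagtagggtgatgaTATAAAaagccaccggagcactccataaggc
CXCL5: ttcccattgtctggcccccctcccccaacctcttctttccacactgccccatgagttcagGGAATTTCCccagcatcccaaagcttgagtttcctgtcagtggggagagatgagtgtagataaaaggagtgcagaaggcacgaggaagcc
CXCL6: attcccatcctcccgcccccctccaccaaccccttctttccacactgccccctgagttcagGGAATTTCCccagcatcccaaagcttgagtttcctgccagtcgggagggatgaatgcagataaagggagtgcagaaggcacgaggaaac
CXCL1: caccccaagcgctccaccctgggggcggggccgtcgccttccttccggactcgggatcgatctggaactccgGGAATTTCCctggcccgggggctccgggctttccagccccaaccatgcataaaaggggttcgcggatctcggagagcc
CXCL2: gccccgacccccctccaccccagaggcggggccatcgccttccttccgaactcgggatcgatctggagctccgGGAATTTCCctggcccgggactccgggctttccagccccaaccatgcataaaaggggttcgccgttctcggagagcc
CXCL3: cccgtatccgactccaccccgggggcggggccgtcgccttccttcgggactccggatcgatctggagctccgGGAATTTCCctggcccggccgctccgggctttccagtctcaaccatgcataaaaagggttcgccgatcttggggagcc

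Every one of the 6 windows held GGAATTTCC once, on the strand of the gene, with its first letter between base -91 (CXCL8) and base -77 (CXCL2) counted from the start. The same 9 letters, on either strand, occurred in 162 of 35116 RefSeq promoter windows, which is 0.461%. They are not particular to the members among chemokines, since 2 of 17 other chemokine genes with a window, CXCL10 and CXCL11, held them. Of the other genes of the cluster, 2 had a window and 0 held the letters. Each RefSeq window runs from 250 bases before to 50 bases after a start. A looser NF-kB pattern, GGG and CC with 5 free bases between them, was met in the windows of all 6 members and in 58.7% of all windows. In 5 of the members, all but CXCL8, a match of this pattern on each strand overlapped the 9 letters. TGANTCA was found in the window of CXCL8 alone among the members, at base -137, and in 7.71% of all windows. TATAAA likewise stood in the window of CXCL8 alone, at base -31, and in 11.5% of all windows. A C/EBP pattern, TTGCNNNAA, was held by 9.21% of windows and matched in none of the 6. It fixes the spacing between TTGC and AA, so C/EBP-like letters with another spacing were not searched. The CXCL8 line, for example, holds ttgcaaat ahead of GGAATTTCC, which that pattern does not match. The lack of a match therefore does not show a lack of C/EBP sites. All matches given here are letter matches in fixed windows around RefSeq starts and show neither binding nor its absence.

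**Figure D1:**
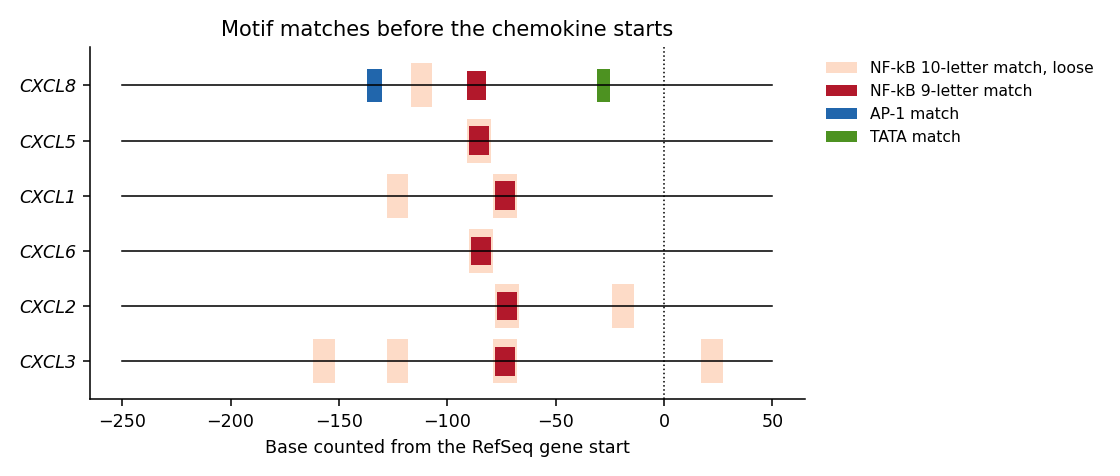
Positions of the letter matches in the promoter windows of the 6 chemokines, in bases counted from the RefSeq start (dotted line), with 1 row per gene. The NF-kB match of 9 letters stands at a similar distance in every row, between base -91 and base -77 at its first letter, and the AP-1 and TATA matches appear in the CXCL8 row only.

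The 250 bases ahead of CXCL5 and CXCL6 were 85.3% identical in a global alignment, and those of CXCL1 and CXCL3 81.4%, CXCL2 and CXCL3 73.4% and CXCL1 and CXCL2 70.1%. CXCL8 stood apart, at 43.9% to 47.9% identity to the other 5. The members are thus related in sequence and not 6 independent promoters. Similarity also reaches into the mRNA, where 15.5% of the runs of 31 bases in the main CXCL1 transcript, 20.4% in that of CXCL2 and 9.57% in that of CXCL3 also occur in transcripts of other members. The matching shares were 1.87% for CXCL5, 2.78% for CXCL6 and 0 of 1675 runs for CXCL8. Reads from shared stretches had been divided among the genes by the authors' quantification, so the single values of CXCL1, CXCL2 and CXCL3 are less certain than that of CXCL8.

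Depth ran from 24077353 to 28031886 estimated reads per library, and 13914 genes, all 6 members among them, passed a filter on low counts and were tested together. The libraries held 1787 to 7371 estimated reads of CXCL8, 870 to 2435 of CXCL5, 1368 to 1881 of CXCL1, 239 to 359 of CXCL6, 207 to 401 of CXCL2 and 81 to 183 of CXCL3, so CXCL3 is the least precisely measured. PK9328 libraries had shorter fragments, estimated at 249.5 to 263 bases, than MS172 libraries (274.1 to 292.8 bases) and DMSO libraries (281.2 to 289.1 bases). In CPM, counts scaled to a common library size after TMM, 9 of 16 ductal and epithelial markers stayed below 1 in every library. EPCAM and CDH1, which encode adhesion proteins, reached 0.0745 and 0.0417 CPM at most, and the ductal keratin KRT7 reached 0.103 CPM. The keratins KRT8, KRT18 and KRT19 were abundant, at 651 to 864, 709.7 to 984 and 289.7 to 367 CPM over all libraries. In all, 7 of the 16 passed the filter on low counts, among them also SOX9, MUC1 and the tight junction gene CLDN4. CLDN4 lay at 97.4 to 218 CPM over all libraries. With some ductal and epithelial markers missing and others present, BxPC3 is used here only as the name on the label. Of 16 leukocyte markers, 14 lay under 1 CPM, with the pan-leukocyte PTPRC at 0.11 CPM at most and the neutrophil genes S100A8, MPO and FCGR3B without reads. Summed over its list, the leukocyte level was 22.7 to 25.3 CPM with MS172, 19.1 to 21.2 CPM with PK9328 and 21.0 to 22.6 CPM with DMSO, nearly all of it CD68.

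Per unit of transcript length, the scale on which genes can be set against each other, CXCL8 and CXCL1 were the main chemokine mRNAs. In MS172 libraries CXCL8 led at 220 ± 4.2 TPM (the authors' length-scaled transcript abundance, SD, n = 3), followed by CXCL1 at 103 ± 5.0, CXCL5 at 44.5 ± 1.9, CXCL2 at 12.8 ± 0.52, CXCL6 at 9.55 ± 0.68 and CXCL3 at 5.51 ± 0.83 TPM. Neighbours in that order did not overlap between libraries. With PK9328 CXCL8 (84.2 ± 6.9 TPM) and CXCL1 (79.7 ± 2.3 TPM) overlapped at the top, ahead of CXCL5 (21.2 ± 1.4 TPM), CXCL2 (17.2 ± 1.8 TPM), CXCL3 (9.19 ± 0.41 TPM) and CXCL6 (8.20 ± 0.19 TPM). With DMSO CXCL1 led at 89.8 ± 7.6 TPM, ahead of CXCL8 at 61.8 ± 2.7, CXCL5 at 19.2 ± 1.2, CXCL2 at 11.4 ± 1.0, CXCL6 at 8.79 ± 1.6 and CXCL3 at 6.55 ± 0.19 TPM, and only CXCL2 and CXCL6 overlapped as neighbours. Thus the leading chemokine mRNA was CXCL8 in MS172 libraries and CXCL1 in DMSO libraries.

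The 6 genes together reached 407.5, 391.5 and 385.7 TPM in the MS172 libraries, 217.4, 225.9 and 216 TPM in the PK9328 libraries and 189.2, 211.3 and 192.2 TPM in the DMSO libraries. CXCL8 made up 55.7% ± 0.79 of that sum with MS172, 38.3% ± 2.2 with PK9328 and 31.3% ± 1.7 with DMSO (SD, n = 3 each). The share of CXCL1 was 25.9% ± 0.60 with MS172, 36.3% ± 1.8 with PK9328 and 45.4% ± 1.6 with DMSO. CXCL5 held a steadier share, of 11.3% ± 0.20, 9.65% ± 0.50 and 9.72% ± 0.41 in the same order of groups. These shares describe mRNA and not secreted protein.

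**Figure D2:**
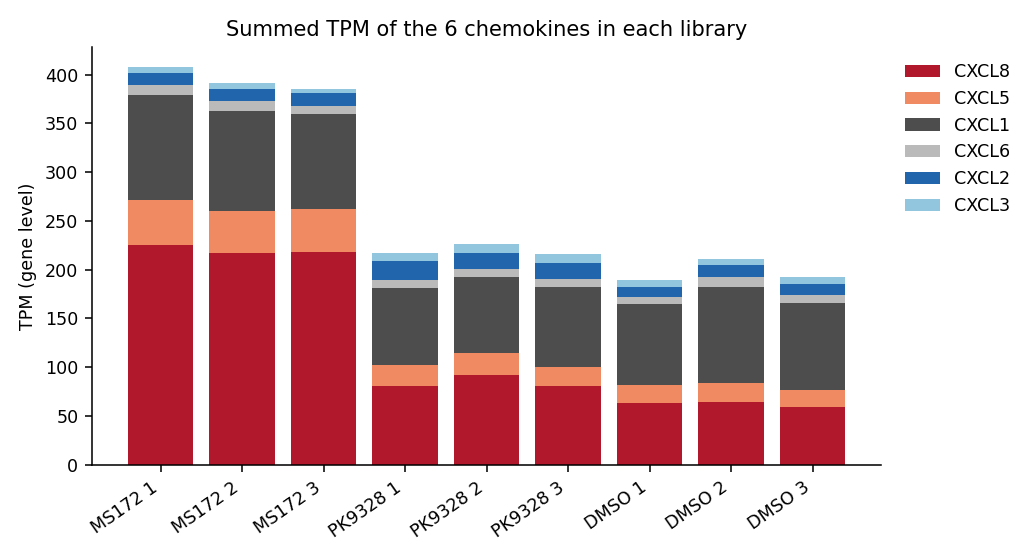
Stacked bars give the TPM of each chemokine gene in each library, by group, on a linear axis from 0. The MS172 bars reach 385.7 to 407.5 TPM, and their CXCL8 segment is the largest, while the PK9328 bars reach 216 to 225.9 TPM and the DMSO bars 189.2 to 211.3 TPM.

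MS172 against DMSO is the comparison that the series design names. CXCL8, the strongest human neutrophil attractant of the group, rose 3.97-fold and CXCL5 rose 2.58-fold. CXCL1, CXCL2 and CXCL6 rose by smaller amounts, and CXCL3 did not pass the test. In all, 5 of 6 members passed an adjusted p under 0.05 (edgeR quasi-likelihood test, Benjamini-Hochberg adjustment over all genes tested), beside 35.1% of all genes tested. All 5 rose, and 17.9% of all genes tested did so. The median log2 fold change was 0.31 over the 6 members and -0.02 over all genes tested.

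CXCL8 (chromosome 4, 73740506 to 73743716) stood at 301, 291 and 286 CPM in the MS172 libraries, against 75.4, 73.0 and 72.8 CPM in the DMSO libraries. All MS172 values lay far above all DMSO values, a log2 fold change of 1.99 ± 0.04 (SE, adjusted p = 5.4e-25 in edgeR, 95% interval 1.90 to 2.08). By size of rise it was number 27 of the 13914 genes tested. Nearly all of its reads, 98.9% to 99.9% in a library, were assigned to the coding transcript ENST00000307407.6.

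CXCL5 (chromosome 4, 73995642 to 73998779, minus strand) stood at 99.4, 93.1 and 90.5 CPM with MS172, against 36.9, 37.3 and 35.5 CPM with DMSO. The groups were again far apart, with a log2 fold change of 1.37 ± 0.05 (SE, adjusted p = 2.7e-19 in edgeR, 95% interval 1.26 to 1.47). A single transcript represents this gene in the files. CXCL6 (chromosome 4, 73836497 to 73849064), whose upstream bases resemble those of CXCL5 most, stood at 13.7, 13.1 and 11.7 CPM with MS172, against 9.69, 12.5 and 9.74 CPM with DMSO. One DMSO library overlapped the MS172 range, and the log2 fold change was 0.27 ± 0.10 (SE, adjusted p = 0.037 in edgeR). The intervals of the CXCL5 and CXCL6 fold changes, 1.26 to 1.47 and 0.06 to 0.47, did not meet, though the difference between genes was not itself tested. The CXCL6 call was lost in 6 of 16 alternatives, namely DESeq2 (adjusted p = 0.057), length-scaled TPM (0.10), and the fits without MS172 replicate 1 (0.15), MS172 replicate 2 (0.096), DMSO replicate 1 (0.17) or DMSO replicate 3 (0.15).

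CXCL1, CXCL2 and CXCL3, first known as growth-related oncogenes alpha, beta and gamma, showed smaller differences. CXCL1 (chromosome 4, 73869393 to 73871242) had 76.8, 72.4 and 67.5 CPM with MS172, against 53.0, 59.6 and 61.1 CPM with DMSO, and the groups did not overlap. Its log2 fold change was 0.32 ± 0.05 (SE, adjusted p = 3.5e-05 in edgeR, 95% interval 0.21 to 0.43). CXCL2 (chromosome 4, 74097035 to 74099293, minus strand) had 10.7, 11.5 and 10.2 CPM with MS172, against 8.02, 9.05 and 9.29 CPM with DMSO, also without overlap. The log2 fold change of 0.30 ± 0.10 (SE, adjusted p = 0.02 in edgeR) lost its call with length-scaled TPM (0.054), without MS172 replicate 2 (0.091) and without DMSO replicate 1 (0.10).

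CXCL3 (chromosome 4, 74036589 to 74038807, minus strand) had 4.86, 4.26 and 3.38 CPM with MS172, against 4.46, 4.51 and 4.73 CPM with DMSO. The MS172 libraries lay on both sides of the DMSO libraries, and the log2 fold change of -0.13 had a 95% interval of -0.42 to 0.16 (adjusted p = 0.51 in edgeR). When the reads of CXCL1, CXCL2 and CXCL3 were summed to 1 unit, to set aside how shared reads had been divided, the log2 fold change was 0.29 ± 0.05 (SE, adjusted p = 8.8e-05 in edgeR). Of the 6 members, 4 had groups that did not overlap, beside 44.7% of all genes tested, and all 4 were higher with MS172, beside 22.0%.

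**Figure D3:**
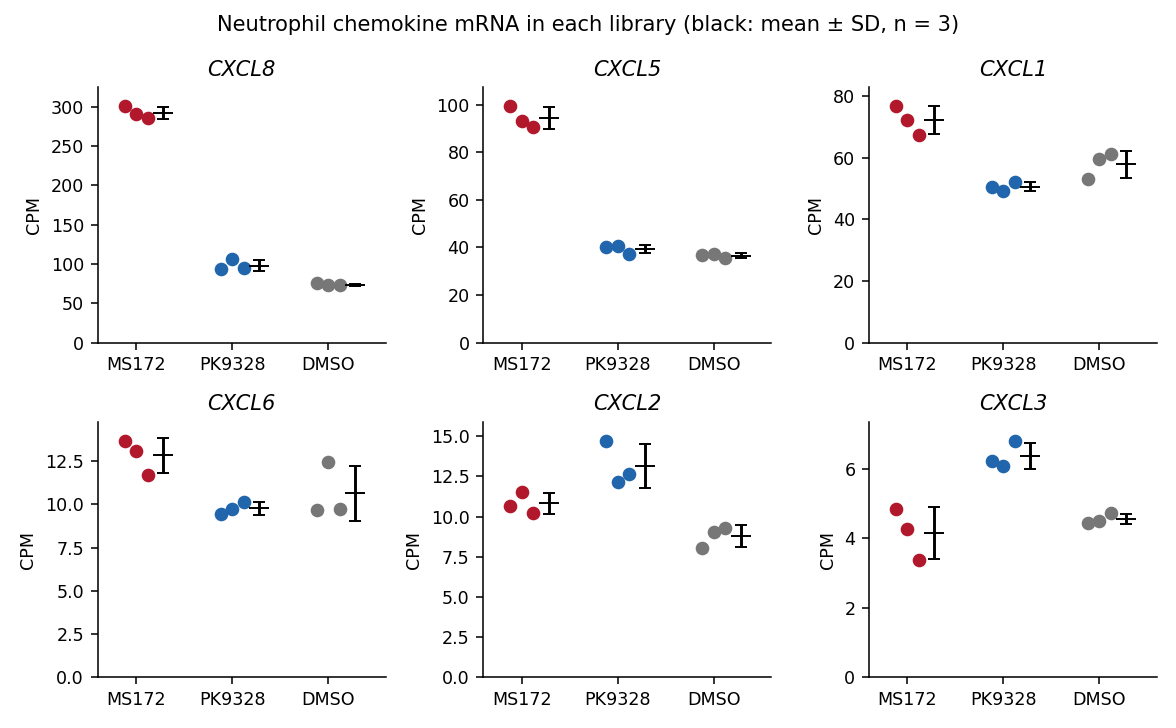
CPM of each chemokine in every library (dots; TMM-scaled, linear axis from 0, 1 panel per gene), with the mean ± SD of 3 libraries in black. CXCL8 and CXCL5 dots are far above the others with MS172, whereas CXCL2 and CXCL3 dots are highest with PK9328.

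PK9328 against DMSO shares its DMSO libraries with the comparison above, so the 2 sets of fold changes are not independent. With PK9328 CXCL8 rose 1.33-fold, CXCL2 1.5-fold and CXCL3 1.40-fold, while CXCL1 fell by 12.6%. CXCL5 and CXCL6 did not pass the test. In all, 4 of 6 members passed the test, beside 15.5% of all genes tested, of which 3 rose, beside 7.98% of all genes tested, and 1 fell, beside 7.48% of all genes tested. The 6 members had a median log2 fold change of 0.26, and all genes tested one of 0.00.

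CXCL8 stood at 93.5, 106 and 94.5 CPM with PK9328, above the 72.8 to 75.4 CPM with DMSO in every library, with a log2 fold change of 0.41 ± 0.04 (SE, adjusted p = 7.2e-08 in edgeR, 95% interval 0.32 to 0.50). CXCL2 stood at 14.7, 12.2 and 12.6 CPM with PK9328, against 8.02, 9.05 and 9.29 CPM with DMSO. Its groups were apart by more than the spread of either, and its log2 fold change of 0.58 ± 0.10 (SE, adjusted p = 7.1e-05 in edgeR) was the largest of the 6 in this comparison. CXCL3 stood at 6.24, 6.09 and 6.81 CPM with PK9328, against 4.46, 4.51 and 4.73 CPM with DMSO, a log2 fold change of 0.48 ± 0.13 (SE, adjusted p = 0.012 in edgeR) with no overlap.

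CXCL1 was the member that fell with PK9328, at 50.4, 49.4 and 52.2 CPM, against 53.0, 59.6 and 61.1 CPM with DMSO. The groups did not overlap but lay close, and the log2 fold change was -0.19 ± 0.05 (SE, adjusted p = 0.015 in edgeR). CXCL5 stood at 40.3, 40.5 and 37.3 CPM with PK9328, against 36.9, 37.3 and 35.5 CPM with DMSO, with a 95% interval of 0.00 to 0.21 for the log2 fold change (adjusted p = 0.19 in edgeR). CXCL6 stood at 9.43, 9.71 and 10.1 CPM with PK9328, within the 9.69 to 12.5 CPM of the DMSO libraries or just under it (log2 fold change -0.13, edgeR adjusted p = 0.44). Groups that did not overlap were seen for 4 members, beside 31.3% of all genes tested, with 3 higher (15.9% of all genes tested) and 1 lower (15.4%).

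With each library's fragment length as a covariate, which overlaps with the PK9328 group and widens its errors, CXCL8 and CXCL1 kept their calls, and the log2 fold change of CXCL1 was -0.42 ± 0.10 (SE, adjusted p = 0.021 in edgeR), against -0.19 without the covariate. CXCL2 had a log2 fold change of 0.60 ± 0.20 (SE) with adjusted p = 0.15 in that edgeR fit, and CXCL3 one of 0.06 with adjusted p = 0.96. The CXCL3 call was also lost with length-scaled TPM (0.085) and without PK9328 replicate 3 (0.057), and the CXCL1 call with length-scaled TPM (0.06) and without DMSO replicate 2 (0.053), DMSO replicate 3 (0.096), PK9328 replicate 1 (0.052) or PK9328 replicate 2 (0.077). Summed to 1 unit, CXCL1, CXCL2 and CXCL3 had a log2 fold change of -0.02 (adjusted p = 0.84 in edgeR, 95% interval -0.13 to 0.09).

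MS172 and PK9328, set against each other at the one labelled dose and time, differed in all 6 members, beside 47.7% of all genes tested. CXCL8, CXCL5, CXCL1 and CXCL6 were higher with MS172 and CXCL2 and CXCL3 were lower with MS172, so 4 of 6 members were higher, beside 23.3% of all genes tested, and 2 were lower, beside 24.4% of all genes tested. CXCL8 was 2.99-fold higher with MS172 (log2 fold change 1.58 ± 0.04, SE, adjusted p = 6.7e-23 in edgeR), at 286 to 301 CPM with MS172 and 93.5 to 106 CPM with PK9328. CXCL5 was 2.40-fold higher with MS172 (log2 fold change 1.26 ± 0.05, SE, adjusted p = 1.1e-18 in edgeR), at 90.5 to 99.4 CPM with MS172 and 37.3 to 40.5 CPM with PK9328.

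Smaller gaps separated CXCL1, at 67.5 to 76.8 CPM with MS172 and 49.4 to 52.2 CPM with PK9328 (log2 fold change 0.51 ± 0.05, SE, adjusted p = 9.4e-09 in edgeR), and CXCL6 (0.39 ± 0.10, SE, adjusted p = 0.0017 in edgeR). CXCL3 was at 3.38 to 4.86 CPM with MS172 and 6.09 to 6.81 CPM with PK9328 (log2 fold change -0.61 ± 0.14, SE, adjusted p = 0.00044 in edgeR). CXCL2 was at 10.2 to 11.5 CPM with MS172 and 12.2 to 14.7 CPM with PK9328 (log2 fold change -0.28 ± 0.10, SE, adjusted p = 0.015 in edgeR). Groups did not overlap for any of the 6 members, beside 55.4% of all genes tested, with 4 higher (26.3% of all genes tested) and 2 lower (29.1%). With the fragment length covariate in edgeR, CXCL3 lost its call at a log2 fold change of -0.19 (adjusted p = 0.70). CXCL2 lost its call at -0.30 ± 0.20 (SE, adjusted p = 0.34), a fold change as large as without the covariate but with a wider error. CXCL2 also lost its call with length-scaled TPM (0.13), without MS172 replicate 3 (0.067) and without PK9328 replicate 1 (0.13). Summed to 1 unit, CXCL1, CXCL2 and CXCL3 were higher with MS172, at a log2 fold change of 0.31 ± 0.05 (SE, adjusted p = 1.7e-05 in edgeR). Most reads of that unit were those of CXCL1.

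**Figure D4:**
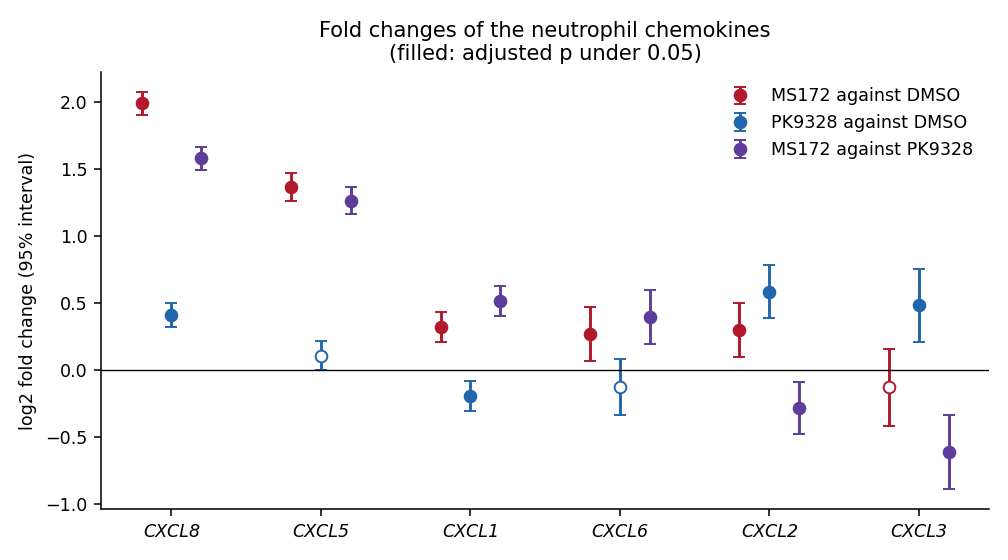
Log2 fold changes (edgeR) of the 6 chemokines with 95% intervals, in 3 comparisons, where filled points passed an adjusted p under 0.05. CXCL8 and CXCL5 lie at 1.99 and 1.37 with MS172 against DMSO, and in MS172 against PK9328 CXCL2 and CXCL3 lie below 0 while the other members lie above it.

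The rest of the cluster was nearly silent. PF4, a platelet chemokine encoded between CXCL1 and CXCL5, had 0.209 to 0.577 CPM with MS172, 0.514 to 0.581 CPM with PK9328 and 0.278 to 0.774 CPM with DMSO, with edgeR adjusted p = 0.98 for MS172 and 0.72 for PK9328 against DMSO. PPBP, another platelet chemokine, reached 0.0388 CPM at most, and PF4V1, a relative of PF4, had no reads. The receptors CXCR1 and CXCR2 and the scavenger receptor ACKR1 had no reads in any library, which allows up to 0.103 to 0.133 CPM in a library (3 counts, counting error only).

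Within 1 Mb of the cluster ends the files held 45 annotated genes, of which 16 were tested, 10 of them other than the 6 members. Of these 10, 2 rose and 1 fell with MS172 against DMSO, beside 35.1% of all genes called, and 2 rose with PK9328 against DMSO, beside 15.5%, so these counts are near those of all genes. The 2 that rose were the same in both comparisons, EREG and AREG, which encode the EGF receptor ligands epiregulin and amphiregulin. EREG had log2 fold changes of 0.35 with MS172 (adjusted p = 0.0035 in edgeR) and 0.38 with PK9328 (adjusted p = 0.0047 in edgeR), and AREG had 0.55 (adjusted p = 1.9e-10 in edgeR) and 0.31 (adjusted p = 1.6e-05 in edgeR). PARM1, a mucin-like membrane protein, fell with MS172 by 0.41 on the log2 scale (adjusted p = 0.034 in edgeR). The nearest tested genes on either side, ANKRD17 and MTHFD2L, had log2 fold changes of -0.04 and 0.07 with MS172 (edgeR adjusted p = 0.48 and 0.57) and of -0.12 and 0.03 with PK9328 (edgeR adjusted p = 0.055 and 0.89). COX18, BTC, the antisense gene AC093677.2 and the long non-coding LINC02562 did not pass the test in either comparison with DMSO.

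**Figure D5:**
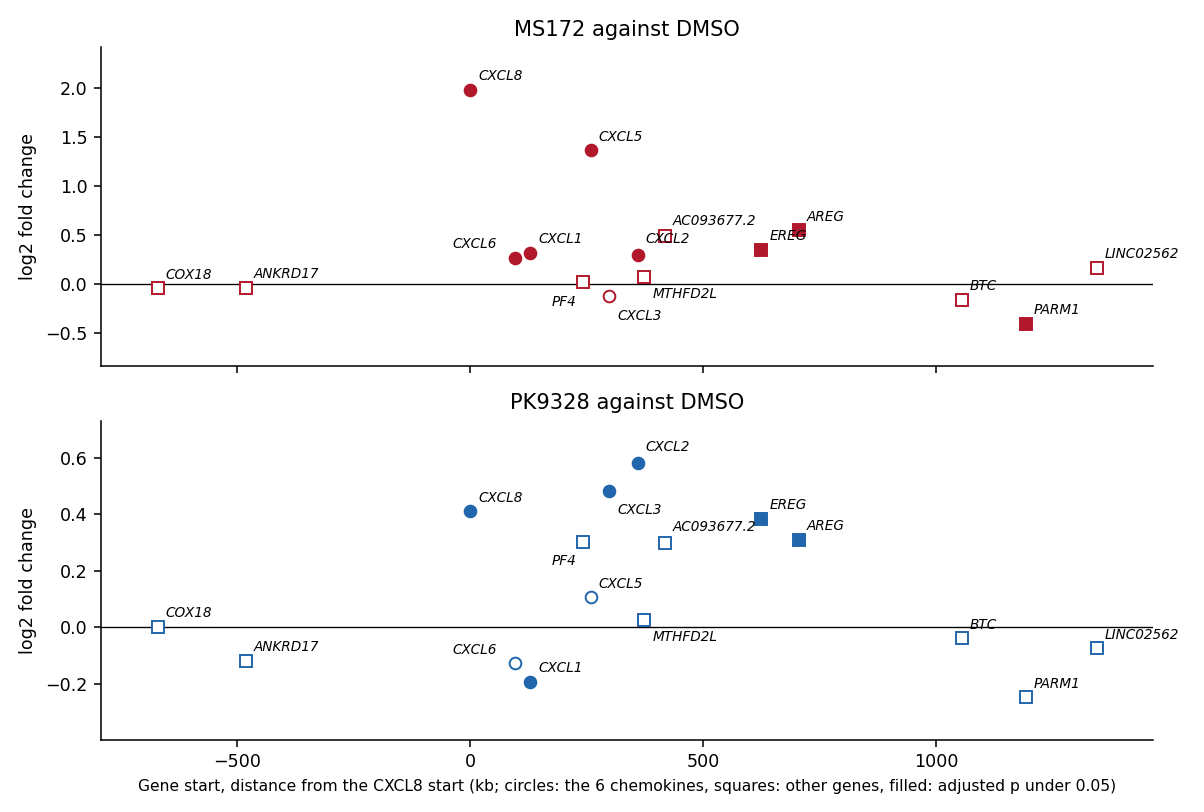
Log2 fold change against the distance of each gene's start from the CXCL8 start, in kb, for the 16 tested genes in and around the cluster. Circles are the 6 chemokines, squares are other genes, and filled symbols passed an adjusted p under 0.05. In the MS172 panel CXCL8 (1.99) and CXCL5 (1.37) stand above all neighbours, and in the PK9328 panel CXCL2 (0.58), CXCL3 (0.48) and CXCL8 (0.41) are the highest points.

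NF-kB, AP-1 and C/EBP factors are known to act on these promoters. Of 18 tested NF-kB factors and feedback genes, 10 rose, beside 17.9% of all genes tested, and 2 fell, beside 17.2%, with MS172 against DMSO, at a median log2 fold change of 0.16 against -0.02 for all genes tested. NFKBIA, the inhibitor that NF-kB itself induces, had 55.0 to 56.5 CPM with MS172 and 31.7 to 32.5 CPM with DMSO, a log2 fold change of 0.79 (adjusted p = 1.1e-13 in edgeR). BIRC3, an apoptosis inhibitor, rose by 0.81, RELB and NFKB2, subunits of the non-canonical branch, by 0.64 and 0.49. The 2 that fell, named after their values were seen, were the kinase subunits IKBKB (-0.42) and CHUK (-0.16). The feedback genes TNFAIP3 (-0.25) and NFKBIZ (-0.38), also named after their values were seen, did not pass the test (edgeR adjusted p = 0.28 and 0.22). With PK9328 7 of the 18 passed the test, all higher (4 by DESeq2), beside 7.98% of all genes tested, with BIRC3 at 0.38 and the subunit REL at 0.69, and the median was 0.14. NFKBIA had 33.4 to 33.6 CPM with PK9328 (log2 fold change 0.06, edgeR adjusted p = 0.46). Set directly against PK9328, 6 of the 18 were higher and 4 lower with MS172, beside 23.3% and 24.4% of all genes tested. The 4 lower were IKBKB (-0.63), TNFAIP3 (-0.55), REL (-0.53) and CHUK (-0.25). In this list 5 of 16 genes with a RefSeq window, namely ICAM1, NFKB1, NFKBIA, NFKBIZ and REL, held GGAATTTCC.

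A list of 14 genes held AP-1 and C/EBP factors and also EGR1, which is of neither family and is counted in every number for this list. Of these 14, 9 rose and 2 fell with MS172, beside 17.9% and 17.2% of all genes tested. Their median log2 fold change was 0.23, against -0.02 for all genes tested. JUND rose by 0.74, FOSL1 by 0.64, JUN by 0.39 and CEBPB by 0.34, and the 2 that fell, named after their values were seen, were EGR1 (-0.25) and DDIT3 (-0.18). With PK9328 7 passed the test, all higher, beside 7.98% of all genes tested, at a median of 0.19 against 0.00, led by DDIT3 (1.31) and ATF3 (1.21), which are stress-induced factors. Set directly against PK9328, 4 of the 14 were higher and 5 lower with MS172, beside 23.3% and 24.4% of all genes tested. MS172 libraries had higher FOSL1 (log2 fold change 0.74, edgeR adjusted p = 5.6e-15) and JUN (0.45, edgeR adjusted p = 2.9e-11), and lower DDIT3 (-1.49, edgeR adjusted p = 4.8e-12), ATF3 (-0.99, edgeR adjusted p = 2.1e-13) and EGR1 (-0.45, edgeR adjusted p = 1.7e-11).

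Regulators of AU-rich mRNA decay were tested as a list of 17 genes. With MS172 7 rose and 1 fell, beside 17.9% and 17.2% of all genes tested, at a median log2 fold change of 0.11 against -0.02 for all genes tested. With PK9328 5 rose and 1 fell, beside 7.98% and 7.48%, at a median of 0.09 against 0.00. MAPKAPK2, the kinase that p38 activates to inhibit ZFP36, rose by 0.36 with MS172 (adjusted p = 2.7e-07 in edgeR) and was at -0.03 with PK9328 (adjusted p = 0.69 in edgeR). The decay factor ZFP36L1 rose by 0.19 with MS172 and 0.18 with PK9328, the p38 phosphatase DUSP1 by 0.26 and 0.33, and the decay factor KHSRP by 0.14 with MS172. ZFP36 itself, named after its values were seen, rose by 0.21 with MS172 (adjusted p = 0.0083 in edgeR) and 0.19 with PK9328 (adjusted p = 0.035 in edgeR). In MS172 against PK9328, 4 of the 17 were higher and 4 lower with MS172, beside 23.3% and 24.4% of all genes tested. The members that fell, named after their values were seen, were TIAL1 with MS172 (-0.13) and HNRNPD with PK9328 (-0.15).

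The letters ATTTA, the core of AU-rich elements, occurred in the 3′ untranslated part of every member's main transcript, 11 times in CXCL5, 10 times in CXCL2, 9 times in CXCL8, 7 times in CXCL3, 6 times in CXCL6 and 5 times in CXCL1 (GENCODE 29 sequences, overlapping matches counted). Per kilobase that is 5.51, 13.9, 7.19, 10.4, 5.36 and 7.08 in the same order, highest in CXCL2 and CXCL3. How often ATTTA occurs in the mRNAs of other genes was not counted, so these numbers do not set the members apart. The densest 30 bases of CXCL2 (bases 137 to 166 after the stop codon) and of CXCL8 (bases 644 to 673 after the stop codon), both on chromosome 4, are shown as the clearest such runs, with ATTTA in capitals.
CXCL2: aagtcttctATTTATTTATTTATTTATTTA
CXCL8: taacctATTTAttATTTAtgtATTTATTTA

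Of 19 partner cytokines and growth factors, 11 lay under 1 CPM in every library, but the list summed to 479 to 680 CPM over all libraries. In this list 8 were tested and 4 rose with MS172, beside 17.9% of all genes tested, with HBEGF at a log2 fold change of 0.95, AREG at 0.55, EREG at 0.35 and the macrophage factor CSF1 at 0.25. The median was 0.20. With PK9328 5 rose, beside 7.98% of all genes tested, at a median of 0.28, among them VEGFA at 0.82 and HBEGF at 0.41. The usual inducers of these chemokines were close to absent, with IL1A at 0.0342 CPM at most, IL1B at 0.0367 CPM, TNF at 0.178 CPM and IL6 without reads. Of 25 other chemokines, 23 lay under 1 CPM in every library and 12 had no reads, and the 3 tested were CXCL16, CCL5 and CX3CL1. With MS172 0 of the 3 passed the test by edgeR, DESeq2 or limma-voom, beside 35.1% of all genes tested by edgeR. Of the 3, 1 had an unadjusted p under 0.05 by edgeR. With PK9328 1 of the 3 fell, beside 7.48% of all genes tested. CXCL16, a membrane-bound chemokine, was at 0.16 with MS172 (adjusted p = 0.054 in edgeR) and fell by 0.24 on the log2 scale with PK9328 (adjusted p = 0.011 in edgeR).

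Receptors and adaptors that feed NF-kB and MAPK signalling were mixed. Of 17 tested, 3 rose and 3 fell with MS172, near the 17.9% and 17.2% of all genes tested, at a median of -0.07, with the TNF receptor TNFRSF1B (-0.52), the pattern receptor NOD1 (-0.63) and EGFR (-0.22) lower, and the lymphotoxin receptor LTBR (0.20) higher. With PK9328 2 fell, beside 7.48% of all genes tested, TNFRSF1B (-0.40) and the protease-activated receptor F2RL1 (-0.20). Ductal and epithelial markers differed between groups too. Of 7 tested 5 rose with MS172 against DMSO, beside 17.9% of all genes tested, and 2 fell with PK9328 against DMSO, beside 7.48%, with CLDN4, a tight junction protein, at 0.78 and -0.27. Summed over the list of 16, they reached 2626 to 2789 CPM with MS172, 2011 to 2092 CPM with PK9328 and 2158 to 2326 CPM with DMSO, and their part in the chemokine result was not tested. Of 4 tested fibroblast markers, 0 passed the test with MS172 against DMSO, beside 35.1% of all genes tested. With PK9328 1 fell, beside 7.48%, namely the collagen COL1A2, by 0.41 on the log2 scale. COL1A2 made up nearly all of the summed list, which was at 2471 to 2571 CPM with MS172, 1821 to 1844 CPM with PK9328 and 2308 to 2500 CPM with DMSO. The smooth muscle actin ACTA2 lay at 7.22 to 14.3 CPM with MS172, 2.24 to 15.0 CPM with PK9328 and 2.95 to 5.04 CPM with DMSO. Its log2 fold changes against DMSO were 1.45 with MS172 (adjusted p = 0.16 in edgeR) and 1.22 with PK9328 (adjusted p = 0.32 in edgeR). In bulk libraries fewer cells of a kind and less RNA per cell cannot be told apart.

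Coding genes with at least 1 CPM whose log2 CPM followed the mean of the 6 chemokines most closely over the 9 libraries were UBE2B (Pearson r = 0.9925), FAM83G (0.9905), TMEM50B (0.9899), RDH11 (0.9897), SLC35A2 (0.9885) and SQLE (0.9866). Closest to CXCL8 alone were SQSTM1 (r = 0.9968), FOXK2 (0.9936) and CKS2 (0.9936). SQSTM1, which encodes an autophagy receptor, averaged 1054 CPM with MS172, 674 CPM with PK9328 and 603 CPM with DMSO. CKS2, a cyclin-dependent kinase subunit, averaged 238 CPM with MS172, 127 CPM with PK9328 and 107 CPM with DMSO. These r values describe 9 libraries that fall into 3 groups, so they mostly restate the group means, and they were picked as the highest of many.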

How the data were processed

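For each of 9 libraries the authors deposited a table of 197653 transcripts with an estimated count and a TPM value, beside 2 lengths. The authors' TPM is scaled to effective length and to a fixed total, per the file headers. FastQC 0.11.8 and hg38 are named in the submitters' processing notes, and the quantification program is not given in the sources used here. Estimated counts of the 193348 transcripts matched by identifier to GENCODE 29 (unmatched ones held 0.356% to 0.382% of reads) were summed to 56865 genes and rounded. The test was edgeR 4.0.16 (R 4.3.3), robust quasi-likelihood, TMM, filterByExpr, all 9 libraries in a single fit without a replicate term and with 6 residual degrees of freedom, checked on simulated counts. Every adjusted p is Benjamini-Hochberg over 13914 genes, with a threshold of 0.05. Alternatives used DESeq2 1.42.0, limma 3.58.1 and the settings named in the closing section. Fragment length was estimated from how far effective length falls short of full length in transcripts of 3000 bases or more. Markers were called detected at 1 CPM. Promoter windows are from RefSeq (GRCh38.p14), where all 6 members matched by symbol, and gene coordinates are from GENCODE 29, counted from 1. Apart from CXCL1, RefSeq starts lie downstream of the GENCODE gene starts. Alignments used Biopython 1.88. No 2 replicate libraries were alike within sampling noise, since the chi-square per gene was 3.39 to 7.11 in every pair.

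The members and gene lists were chosen with earlier results of these data known. The rule named all members, the rest of the cluster and the receptors whatever their result, tested neighbours within 1 Mb, up to 4 members of each other list with the smallest p for MS172 and 2 for PK9328, and the coding genes most like the members. The endothelial list had no tested gene, with a sum of at most 0.449 CPM.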

Additional observations from a re-analysis of the deposited data

How the results depend on the processing

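Of 288 recomputed fold changes (6 members, 3 comparisons, 16 alternatives each), 263 kept their direction and side of the threshold, 23 kept their direction but lost their call, and 2 changed sign, both of uncalled genes: CXCL3 with MS172 against DMSO without MS172 replicate 3 (range with a library left out -0.26 to 0.00098) and CXCL6 with PK9328 against DMSO without DMSO replicate 2 (-0.19 to 0.0055). CXCL8 in all comparisons, CXCL5 with MS172 and CXCL1 with MS172 were called under every alternative run, at 1.97 to 2.01, 1.33 to 1.40 and 0.26 to 0.37 against DMSO. The members called with MS172 against DMSO numbered 5, and 3 with length-scaled TPM and 3 to 5 with a library left out (3 without MS172 replicate 2 or DMSO replicate 1). With PK9328 against DMSO they numbered 4, and 2 with length-scaled TPM, 2 with the fragment length covariate (1 higher, 1 lower) and 3 to 4 with a library left out. With MS172 against PK9328 they numbered 6, and 5 with length-scaled TPM, 4 with the fragment length covariate (4 higher, 0 lower) and 5 to 6 with a library left out. Over all genes, PK9328 against DMSO gave 2151 calls, 1080 with length-scaled TPM, 175 with the covariate and 1384 to 2215 with a library left out, the lowest being 1384 without DMSO replicate 1 and 1400 without PK9328 replicate 2. MS172 against PK9328 gave 6641 calls, 2474 with the covariate and 5651 to 6150 with a library left out, and MS172 against DMSO gave 4884 and 3874 to 4453. Beyond the settings named, the cause of a lost call was not tested. Same-numbered libraries did not deviate together (r from -0.0569 to 0.0174 over 9 pairs, 0 of them over 0.1), so the replicate number only names a library. With the replicate block the calls among members were 5, 4 and 6, as without it. The main coding transcript alone and the sum of CXCL1, CXCL2 and CXCL3 were added after the data were seen. Depth limits CXCL3 most, at 81 reads in its lowest library.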

Other observations

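Non-coding transcripts of the members took small shares of their reads. The processed CXCL3 transcript ENST00000511669.1 was assigned 13.1%, 4.64% and 4.03% of the gene's estimated reads in the MS172 libraries, 15.8%, 12.5% and 9.89% in the PK9328 libraries and 9.54%, 14.3% and 15.1% in the DMSO libraries. Of the CXCL1 reads, 2.58% to 7.14% in a library went to the processed transcript ENST00000509101.1, and the retained-intron transcript of CXCL2 held 0.56% to 1.52%. The processed CXCL2 transcript ENST00000296031.4 had no reads in 6 libraries and 0.43%, 1.1% and 3.98% in the others, the highest being MS172 replicate 3. The retained-intron transcript of CXCL8 held 0.0908% at most. These shares rest on few reads and on the authors' division of reads among overlapping transcripts, and were not tested.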
